A study of Mus musculus with 2 samples.

Results

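Nnt, Txnrd2, Txn2, Prdx3, Prdx5, Gpx1, Gpx4, Sod2, Gsr and Idh2 supply reducing power to mitochondria or use it there to remove superoxide and peroxides. These 10 genes were chosen by symbol, as genes of 1 pathway, out of 55418 gene symbols in the deposited gene table, and all 10 were found in both libraries. Total RNA-seq was performed on adrenal glands of female B6CASTF1/J mice, 14 days old, with 300 ng of RNA in each library and ERCC spike-ins (synthetic RNAs of known amount) added. B6CASTF1/J is the F1 cross of C57BL/6J and CAST/EiJ, so every animal carried 1 allele of each parent. The labels give 1 group with 2 biological replicates and no treatment, so the comparison available is replicate 2 against replicate 1. Whether these are separate animals is not settled: the donor identifier is shared, the library description of both names pooled females, and the tissue of replicate 2 alone is labelled as 1 numbered female. The spread between them may thus be partly technical.

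Steroid-producing mitochondria are exposed to oxidants because their cytochromes P450 leak electrons to oxygen. NNT (nicotinamide nucleotide transhydrogenase) sits in the inner membrane and uses the proton gradient to make NADPH from NADH, while IDH2 makes NADPH from isocitrate. NADPH then feeds glutathione reductase (GSR) for the glutathione peroxidases GPX1 and GPX4, and thioredoxin reductase 2 (TXNRD2) for thioredoxin 2 (TXN2) and the peroxiredoxins PRDX3 and PRDX5. SOD2, the manganese superoxide dismutase, turns superoxide into the hydrogen peroxide that these enzymes remove. In humans, inherited loss of NNT or of TXNRD2 causes familial glucocorticoid deficiency, an adrenal disease. The C57BL/6J strain carries a deletion of several exons within Nnt, and CAST/EiJ is a separate wild-derived strain.

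Library depth was 33844950 expected counts in replicate 2 against 37586172 in replicate 1, of which the 10 genes held 39347 and 44108 counts, or 0.190% and 0.187% of the nuclear gene counts. The adrenal label was met by its markers in both libraries. Summed over 12 cortex markers, TPM (transcript abundance scaled to a fixed total per library) reached 4349 in replicate 2 against 10372.2 in replicate 1, and 12 chromaffin markers summed to 826.9 and 1817. The libraries differed in RNA of other tissues. All 12 liver markers were higher in replicate 2, with 24899 TPM in replicate 2 and 423 in replicate 1, and so were all 10 skeletal muscle markers, with 596.8 and 27.6 TPM. All 8 T cell markers were lower in replicate 2, with 1.96 TPM in replicate 2 and 45.5 in replicate 1, and none was at 0 in either library. Brown fat RNA was present in both, with 8 markers at 3166 TPM in replicate 2 and 2854 in replicate 1, of which Ucp1, the thermogenic uncoupling protein, held 773.8 and 658.6. In such bulk samples, fewer cells of a type and less RNA per cell cannot be told apart, and the part of these tissues in the differences below was not tested.

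Nnt was annotated under a pair of gene identifiers at the same place, ENSMUSG00000025453.18 on the minus strand at chr13:119335448-119408997 (mm10, GENCODE M21) and ENSMUSG00000116207.1 at chr13:119335528-119408952, and their values were summed. Nnt-202 has 17 exons, 3464 bases and 835 codons. Nnt-206, the one transcript of the second identifier, is an exact inner stretch of Nnt-202, lacking 45 bases at one end and 80 at the other, with the same 835 codons. The annotated transcript with a different coding sequence over the same span as Nnt-202 is Nnt-201, which has 15 exons and 721 codons. It lacks exon 8 (chr13:119374629-119374774, 146 bases) and exon 9 (chr13:119372396-119372591, 196 bases), together 342 bases or 114 codons, and keeps the reading frame. The sequences are shown because reads over them are what separates the 2 Nnt forms; in the junction, lower case is the end of exon 7 and capitals the start of exon 10, and the skipped exons are whole.
Nnt-201 exon 7 to exon 10 junction: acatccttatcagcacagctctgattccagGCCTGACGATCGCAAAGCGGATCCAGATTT
Nnt exon 8: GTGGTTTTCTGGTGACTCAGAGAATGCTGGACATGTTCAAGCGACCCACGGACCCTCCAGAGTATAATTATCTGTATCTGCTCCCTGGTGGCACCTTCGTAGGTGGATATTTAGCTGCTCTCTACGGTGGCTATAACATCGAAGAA
Nnt exon 9: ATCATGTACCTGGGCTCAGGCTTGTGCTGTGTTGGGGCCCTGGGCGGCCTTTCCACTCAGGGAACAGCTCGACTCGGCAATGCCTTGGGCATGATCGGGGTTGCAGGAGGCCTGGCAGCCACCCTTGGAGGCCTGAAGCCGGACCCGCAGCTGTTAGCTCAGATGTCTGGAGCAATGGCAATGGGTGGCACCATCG
All 3 are on the transcript strand, 5′ to 3′, and exons are numbered from the start of Nnt-202. The mm10 assembly is built from C57BL/6J, so the annotated exons are those that strain retains. The 17-exon form thus lacks the exons deleted in C57BL/6J and is not the whole of Nnt. Exons carried by the CAST/EiJ allele alone were not analysed here.

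Nnt was found at 20.1 TPM in replicate 2 against 25.4 TPM in replicate 1, a mean of 22.7 ± 3.70 (SD, n = 2), from 2061 and 2702 expected counts. In all, 88.5% of protein-coding genes lay at or below it in replicate 2, and 89.2% in replicate 1. Nnt thus stood in the upper part of all protein-coding genes in both libraries, a set not limited to expressed genes. The value of replicate 1 was the higher on the TPM scale. The second deposited quantification, which is a separate transcript table, gave 27.4 TPM in replicate 2 against 32.4 TPM in replicate 1. The 5 protein-coding genes nearest to Nnt in log2(TPM + 1) over the 2 libraries were Ap1g1, Tfam, Tmem234, Elavl1 and Med25. Tfam, the transcription factor that packages mitochondrial DNA, was at 19.9 TPM in replicate 2 against 25.0 TPM in replicate 1. With 2 libraries such nearness is common: 68 of 21991 protein-coding genes lay within a distance of 0.1.

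The 2 quantifications placed Nnt reads on different transcripts. In the first transcript table, Nnt-201, the form without exons 8 and 9, had 10.7 TPM in replicate 2 against 14.3 TPM in replicate 1. The bounds deposited by the authors were 8.81 to 11.7 TPM in replicate 2 and 12.4 to 15.7 TPM in replicate 1. Nnt-201 was thereby the leading Nnt transcript of that table in both libraries, with 53.2% and 56.6% of the gene's TPM (54.9 ± 2.35%, SD, n = 2). In the second table the same transcript had 3.43 TPM in replicate 2 against 5.48 TPM in replicate 1, or 12.5% and 16.9% of the gene (14.7 ± 3.12%). Its share was therefore 4.25-fold higher in the first table than in the second for replicate 2 and 3.34-fold for replicate 1. The single-library shares of the 2 tables did not overlap, so the gap between tables was larger than the spread between replicates.

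Nnt-206, with 17 exons, had 7.54 TPM in replicate 2 against 9.62 TPM in replicate 1 in the first table, and 13.5 and 16.7 TPM in the second. Nnt-202, which differs from it at the ends alone, was at 1.22 TPM in replicate 2 but listed at 0 in replicate 1 in the first table, while the second gave 9.23 and 7.92 TPM. The deposited bounds of Nnt-202 in replicate 2 ran from 8.15e-05 to 6.83 TPM, so the split between Nnt-202 and Nnt-206 was poorly fixed there. Summed over the 3 protein-coding transcripts that keep exons 8 and 9 (Nnt-202, Nnt-203 and Nnt-206), the share was 45.03% in replicate 2 and 40.9% in replicate 1 in the first table, against 84.9% and 79.5% in the second. The form without the exons was thus 1.18 times the forms with them in replicate 2 and 1.38 times in replicate 1 by the first table, and 0.148 and 0.213 times by the second. Nnt-203, Nnt-204 and Nnt-205, the last 2 retaining an intron, stayed at or below 0.74 TPM each in the first table. The order of the form without exons 8 and 9 and the forms with them depends on the quantification. Reads over the junction were not analysed here.

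**Figure D1:**
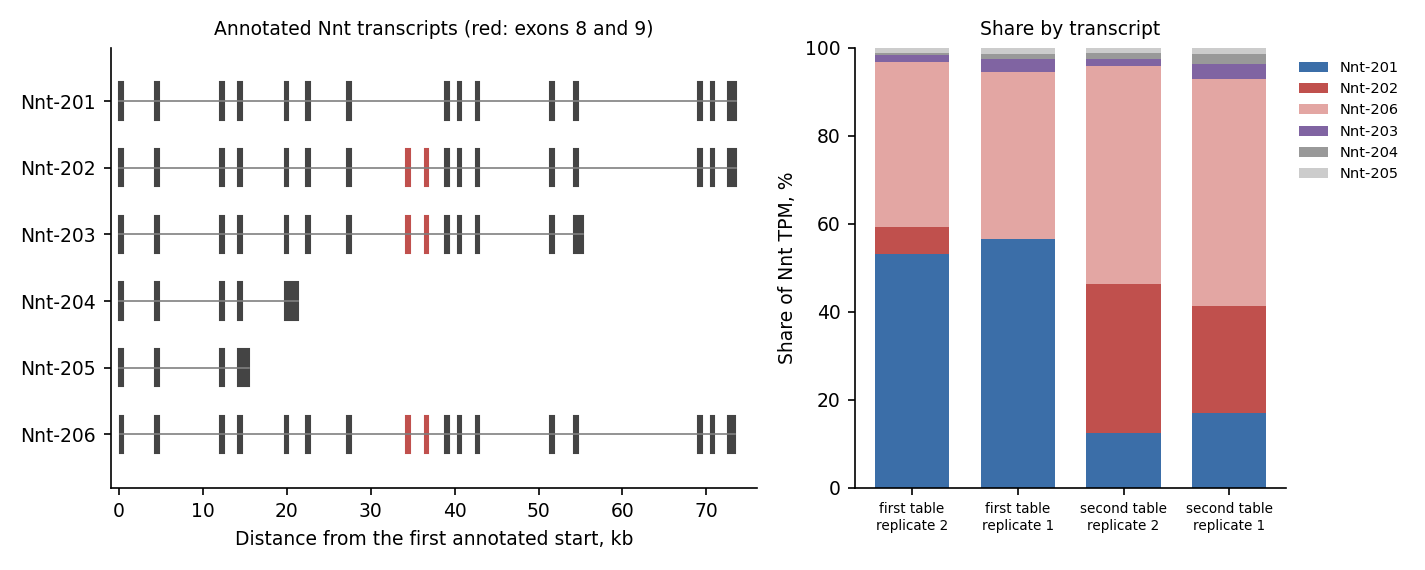
Left, exons of the 6 annotated Nnt transcripts against distance from the first annotated start in kb, with exons 8 and 9 in red. Right, percent of Nnt TPM per transcript in each table and library; the blue part, Nnt-201, takes 53.2% and 56.6% in the first table but 12.5% and 16.9% in the second (replicate 2, then replicate 1).

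Idh2 (chr7:80094846-80115392, minus strand) had 98.7 TPM in replicate 2 against 77.8 TPM in replicate 1 (88.3 ± 14.8, SD, n = 2). Replicate 2 was thus the higher library for Idh2, and on the log2 TPM scale Nnt lay 1.96 ± 0.48 (SD, n = 2) below it. Idh2 exceeded Nnt 4.91-fold in replicate 2 and 3.07-fold in replicate 1. Nearly all of it came from 1 transcript, Idh2-201, with 97.3% of the gene's TPM in replicate 2 and 96.9% in replicate 1, and 91.2% and 82.6% in the second table. Idh1, its counterpart in the cytosol and peroxisome, had 107.4 TPM in replicate 2 against 178.5 TPM in replicate 1, so Idh2 was at 0.919 and 0.436 times Idh1. Set against Cyp11a1, the mitochondrial P450 that starts steroid synthesis and takes electrons from NADPH, Nnt was 25.7-fold lower in replicate 2 and 47.4-fold lower in replicate 1.

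The reductases were the low members of the pathway. Gsr (chr8:33652523-33698163, plus strand), whose product returns oxidised glutathione to its reduced form, had 17.7 TPM in replicate 2 against 27.4 TPM in replicate 1 (22.5 ± 6.84, SD, n = 2). Txnrd2 (chr16:18426384-18479073, plus strand) had 15.5 TPM in replicate 2 against 18.7 TPM in replicate 1 (17.1 ± 2.31). Both lay with Nnt in the lower group of the 10, and neither differed from its neighbour in the order beyond the range of the libraries. The ratio of Nnt to Txnrd2 was the steadiest between libraries of the 10 gene pairs compared. It was 1.30 in replicate 2 and 1.35 in replicate 1, or 0.41 ± 0.04 on the log2 scale. Its mean log2 value depended on the measure, with 0.21 in the second table and 1.42 as counts, which are not per length. Txn2 (chr15:77915047-77929006, minus strand), the carrier that TXNRD2 reduces, was at 98.7 TPM in replicate 2 against 140.8 TPM in replicate 1 (119.7 ± 29.8). Txn2 thus exceeded its reductase 6.38-fold in replicate 2 and 7.51-fold in replicate 1.

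Among the peroxidases, Prdx3 and Prdx5 receive electrons from TXN2. Prdx3 (chr19:60864051-60874556, minus strand), whose product is found in mitochondria, had 107.1 TPM in replicate 2 against 186.6 TPM in replicate 1 (146.9 ± 56.2, SD, n = 2). Prdx5 (chr19:6906697-6910106, minus strand), whose product is also found in peroxisomes and the cytosol, had 112.3 TPM in replicate 2 against 93.4 TPM in replicate 1 (102.8 ± 13.3). The pair changed order between libraries: Prdx3 was at 0.954 times Prdx5 in replicate 2 and at 2.00 times in replicate 1. Gpx1 (chr9:108338903-108340343, plus strand), a glutathione peroxidase of cytosol and mitochondria, had 295.2 TPM in replicate 2 against 182.0 TPM in replicate 1 (238.6 ± 80.1). Gpx4 (chr10:80047166-80056439, plus strand), which reduces lipid hydroperoxides within membranes, had 281.1 TPM in replicate 2 against 358.5 TPM in replicate 1 (319.8 ± 54.7). These also crossed, with Gpx1 at 1.05 times Gpx4 in replicate 2 and 0.508 times in replicate 1.

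Sod2 (chr17:13006846-13040063, plus strand) had 167.5 TPM in replicate 2 against 154.3 TPM in replicate 1 (160.9 ± 9.35, SD, n = 2), so the libraries lay close together. Sod1, the copper-zinc enzyme found mainly in the cytosol, had 334.2 TPM in replicate 2 against 362.3 TPM in replicate 1, and Sod2 was at 0.501 and 0.426 times Sod1. Ordered by mean TPM, the 10 genes ran Gpx4, Gpx1, Sod2, Prdx3, Txn2, Prdx5, Idh2, Nnt, Gsr and Txnrd2. The ranges of neighbours in this order overlapped except between Gpx1 and Sod2 and between Idh2 and Nnt. The step from Idh2 to Nnt was 65.5 TPM between the means and separates 7 genes of at least 77.8 TPM in both libraries from 3 genes of at most 27.4 TPM.

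**Figure D2:**
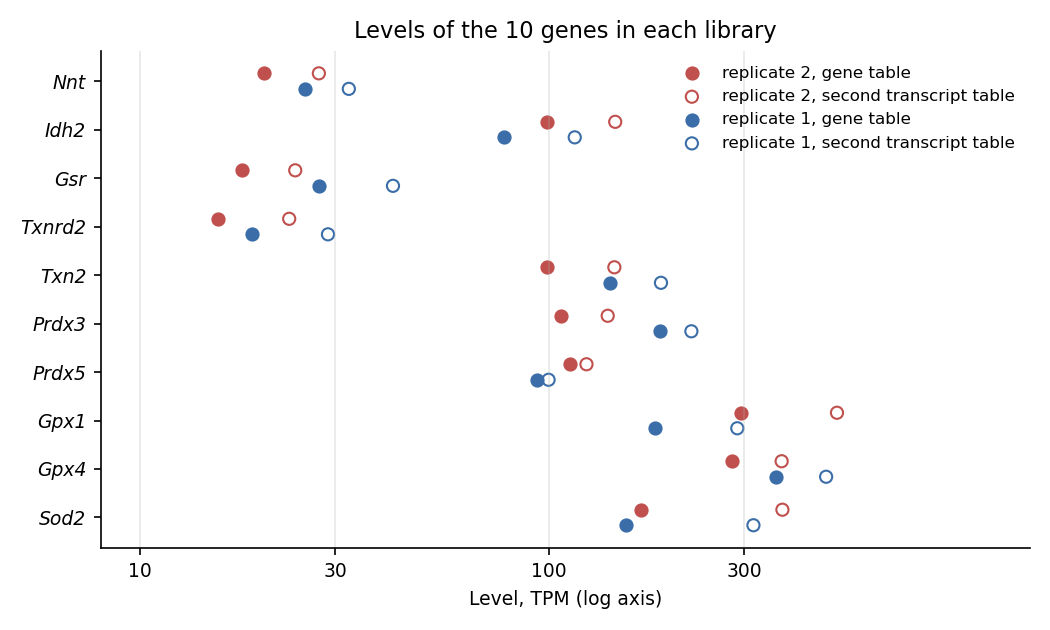
TPM of each gene on a log axis, replicate 2 in red and replicate 1 in blue, filled for the gene table and open for the second transcript table. Nnt, Gsr and Txnrd2 lie apart from the other 7 genes in both libraries and both tables, with Nnt at 20.1 and 25.4 TPM against 98.7 and 77.8 TPM for Idh2 (gene table, replicate 2, then replicate 1).

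Read counts of the libraries were compared with an exact conditional binomial test (two-sided, scaled with edgeR's TMM, Benjamini-Hochberg adjusted over 16137 genes whose mean count reached 20). It compares the reads of 2 libraries, not conditions, and its intervals cover counting error alone. Of the 10 genes, 8 were called, where 53.1% of all genes were: 7 were higher in replicate 2 (Gpx1, Idh2, Prdx5, Sod2, Txnrd2, Gpx4 and Nnt), 1 was lower (Prdx3) and 2 were not called (Txn2 and Gsr). Among all genes tested, 28.8% were called higher and 24.3% lower; among those whose mean count reached 500, which takes in all 10, it was 35.6% and 31.2%, or 66.8% in either direction. The median log2 difference was 0.22 over the 10 genes and 0.0017 over all genes tested. The 10 genes did not move together, and their log2 differences ran from -0.38 (Prdx3) to 1.18 (Gpx1).

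Gpx1 differed most, 2.27-fold higher in replicate 2 (95% interval 2.18 to 2.36), with 6829 counts in replicate 2 and 4239 in replicate 1. Idh2 was 1.71-fold higher (1.64 to 1.78; exact binomial adjusted p = 3.121e-151) from 5295 counts in replicate 2 and 4360 in replicate 1. Prdx5 was 1.57-fold higher (1.47 to 1.67; exact binomial adjusted p = 3.011e-46) from 2197 and 1976 counts. Under TMM these are the 3 genes past 1.5-fold in the higher direction, where 14.5% of all genes stood, and none of the 10 was past 1.5-fold in the lower direction, where 8.55% stood. By ERCC and total counts Prdx3 was past 1.5-fold lower, at log2 differences of -0.65 and -0.72, while Idh2 (0.50 and 0.43) and Prdx5 (0.37 and 0.30) were no longer past 1.5-fold higher. Sod2 was 1.35-fold higher (1.31 to 1.40; exact binomial adjusted p = 2.295e-75). Prdx3 was at 0.771-fold (0.744 to 0.798; exact binomial adjusted p = 3.765e-48), with 4871 counts in replicate 2 and 8901 in replicate 1. The peroxidases of the thioredoxin branch, Prdx3 and Prdx5, thus lay on opposite sides of no difference, except with cortex markers set to 0, where the log2 difference of Prdx3 was 0.45, and with the respiratory chain set to 0, where Prdx5 was not called.

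The remaining differences were small. Txnrd2 was 1.17-fold higher in replicate 2 (1.07 to 1.29; exact binomial adjusted p = 0.0021), Gpx4 1.15-fold higher (1.11 to 1.20; adjusted p = 6.685e-13) and Nnt 1.07-fold higher (1.01 to 1.14; adjusted p = 0.0295). Txn2 was at 0.973-fold (0.934 to 1.01; exact binomial adjusted p = 0.280) and Gsr at 0.943-fold (0.875 to 1.02; adjusted p = 0.202). The direction of the small differences rests on the scaling. Scaling by ERCC spike-ins moved the median of all genes to a log2 difference of -0.28. The log2 differences of Nnt, Txnrd2 and Gpx4 were then -0.18, -0.05 and -0.07. By ERCC, 4 of the pathway genes were called higher and 5 lower, where 15.65% and 52.81% of all genes tested were. By total counts the median of all genes was at -0.34, and Nnt, Txnrd2 and Gpx4 were at -0.24, -0.11 and -0.14. As log2(TPM + 1), where each library is scaled to the same total, they were at -0.32, -0.26 and -0.35, so their TPM is lower in replicate 2 while their TMM-scaled counts are higher. Gpx1 and Idh2 were called higher under the TMM, ERCC, total-count, respiratory-chain and cortex-marker scalings. Prdx5 was too, except with the respiratory chain set to 0, where its log2 difference was 0.03 and was not called (exact binomial adjusted p = 0.478).

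**Figure D3:**
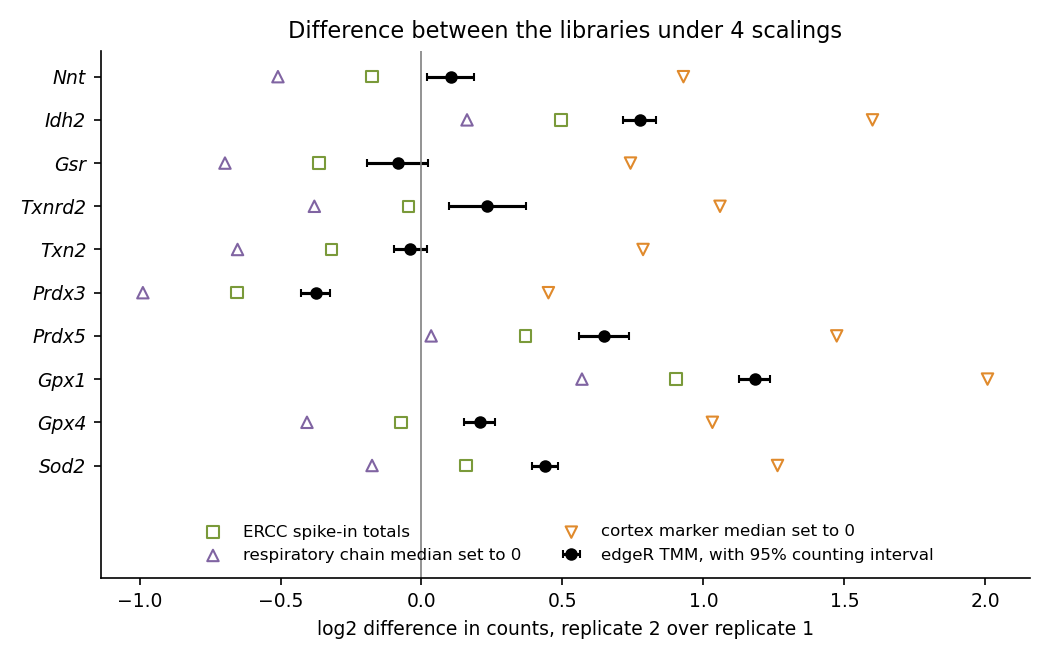
log2 difference of replicate 2 over replicate 1 for each gene under 4 scalings, with 95% counting intervals for edgeR TMM. Nnt, Txnrd2 and Gpx4 lie above 0 under TMM (0.10, 0.23 and 0.21) and below 0 under ERCC totals (-0.18, -0.05 and -0.07), Sod2 is at -0.18 with the respiratory chain set to 0, and Prdx3 is at 0.45 with the cortex markers set to 0.

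Genes of related function were compared in the same way, with values under TMM scaling, where 28.8% of all genes tested were called higher and 24.3% lower. The 30 nuclear genes of the respiratory chain were all called higher in replicate 2, with a median log2 difference of 0.61, a median that stayed above 0 by ERCC (0.33) and total counts (0.27). Of 14 genes of mitochondrial content, such as Tomm22 and Vdac1, 11 were called higher and 2 lower (Tomm20, -0.30, and Hspd1, -0.13). The median of the 14 was 0.26, which turned to -0.02 by ERCC and -0.09 by total counts. Of 16 other genes of mitochondrial NADPH and redox metabolism, 10 were called higher, 2 lower and 4 not, with a median of 0.48, against 0.20 by ERCC and -0.13 with the respiratory chain set to 0. In this group Glud1, glutamate dehydrogenase, had 178.0 TPM in replicate 2 against 55.3 TPM in replicate 1 (log2 difference 1.94), and Sirt3, the deacetylase that acts on IDH2 and SOD2, was also higher (1.03). Mthfd2, a mitochondrial folate enzyme, was lower, with 3.16 TPM in replicate 2 against 8.14 TPM in replicate 1 (-0.80), and so was Oxr1 (-0.41). For the genes of mitochondrial steroid synthesis, which are P450 enzymes, their electron carriers and the cholesterol transfer protein Star (-0.93), the direction was the other way: 6 of 7 were called lower, with a median of -0.80, which was near 0 (0.02) when the cortex markers, some of them the same genes, were set to 0. Fdx1 and Fdxr, which carry electrons from NADPH to the mitochondrial P450 enzymes, were at log2 differences of -0.82 and -0.50. The exception was Cyp27a1 (1.59), a sterol hydroxylase that the liver also expresses.

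Redox genes outside mitochondria were mixed, with 13 of 26 called higher, 7 lower and 6 not called. Their median log2 difference of 0.15 turned to -0.13 by ERCC. By that scaling 8 were called higher and 12 lower, where 15.65% and 52.81% of all genes tested were. Cat, the peroxisomal catalase, had 195.2 TPM in replicate 2 against 106.4 TPM in replicate 1 (1.20), and Gclc, the catalytic subunit of glutathione synthesis, 19.3 and 11.1 TPM (1.27). Me1, which makes NADPH in the cytosol, was lower, with 97.7 TPM in replicate 2 against 276.4 TPM in replicate 1 (-1.07). Srxn1, sulfiredoxin, which repairs over-oxidised peroxiredoxins such as PRDX3, was also lower, with 22.6 TPM in replicate 2 against 58.4 TPM in replicate 1 (-0.90). Srxn1 and Prdx3 were thus both lower in replicate 2 under TMM, while Prdx3 was higher with the cortex markers set to 0. Txnrd1, the cytosolic counterpart of Txnrd2, was not called, with 26.0 TPM in replicate 2 against 32.3 TPM in replicate 1 (0.01). Nfe2l2, the gene of the antioxidant response factor NRF2, was not called either (0.04).

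Cell type markers also differed between the libraries, in both directions. Median log2 differences were 6.32 for the 12 liver markers, 5.05 for the 10 skeletal muscle markers and 0.56 for 8 brown fat markers, of which 7 were called higher and Dio2 lower. They were -0.83 for the 12 cortex markers, of which 11 were called lower, -0.71 for the 12 chromaffin markers, of which 10 were, -1.29 for the 7 erythroid markers tested and -4.56 for the 8 T cell markers. The 8 macrophage and 8 stroma markers had medians of 0.90 and 0.76. By the other scalings, the brown fat median turned to -0.06 with the respiratory chain set to 0 and the chromaffin median to 0.12 with the cortex markers set to 0. Their part in the differences of the 10 genes was not tested. With the cortex marker median set to 0, all 10 genes were called higher in replicate 2, where 86.35% of all genes tested were. With the respiratory chain median set to 0, 2 were called higher and 7 lower, where 9.49% and 75.34% of all genes were.

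**Figure D4:**
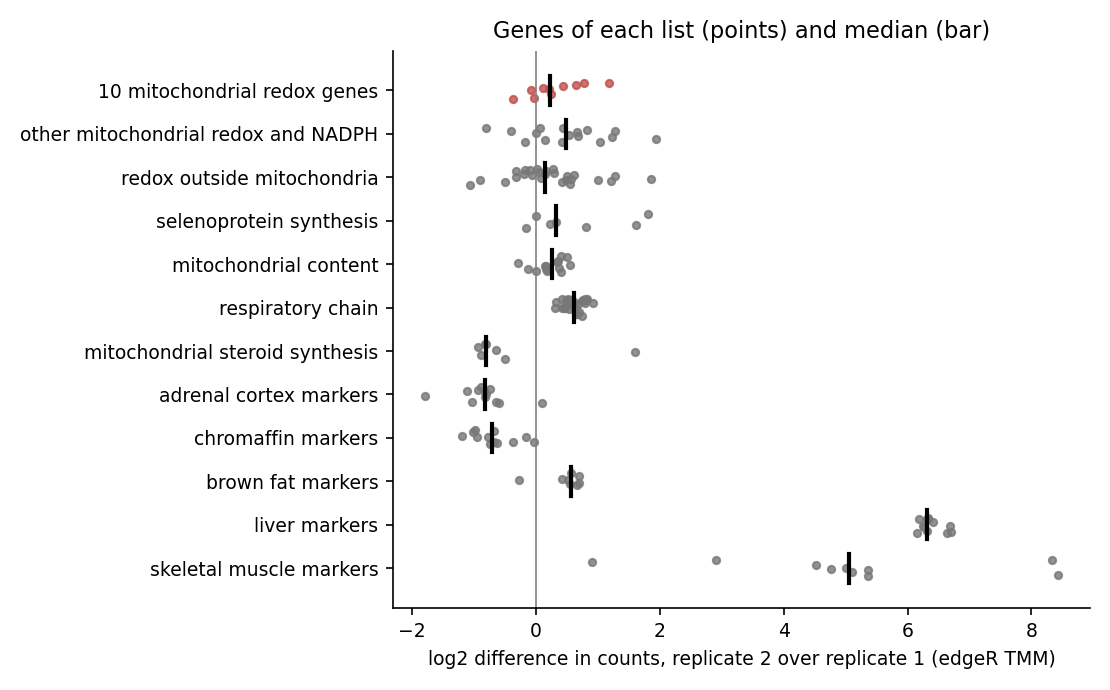
log2 difference of replicate 2 over replicate 1 (edgeR TMM) for each gene of 12 lists, with a bar at the list's median. The 10 redox genes (red) spread around 0.22 (-0.06 by ERCC scaling, which moves all lists left), between the adrenal cortex markers at -0.83 and the respiratory chain at 0.61; liver and skeletal muscle markers lie far to the right at 6.32 and 5.05.

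Of the 10 genes, 3 encode selenoproteins, in which a TGA codon is read as selenocysteine. The codon and the bases on either side are shown because the transcripts of each gene differ in whether it is annotated in them. Transcripts without the annotation were not searched for it. Capitals mark the TGA, and sequences are on the transcript strand, 5′ to 3′, from GENCODE M21.
Gpx1-201, codon 47 of 201: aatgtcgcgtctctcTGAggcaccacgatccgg
Gpx4-202, codon 73 of 197: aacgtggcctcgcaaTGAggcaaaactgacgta
Txnrd2-203, codon 526 of 527: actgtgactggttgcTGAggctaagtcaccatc
In Gpx1 and Gpx4 the codon stands well inside the protein, in the catalytic site, and in Txnrd2 it is the second to last residue. Transcripts with the annotated codon held 31.9% of Gpx1 TPM in replicate 2 and 28.1% in replicate 1 in the first table, against 46.0% and 39.5% in the second. By TPM, the leading Gpx1 transcript in both tables was Gpx1-204, a shorter model of 145 codons with no annotated selenocysteine. It had 57.8% in replicate 2 and 70.6% in replicate 1 in the first table. By counts, which are not per length, Gpx1-201 led in the second table, with 65.4% in replicate 2 and 58.5% in replicate 1. Gpx1-204 had 33.1% and 40.2% of counts there. In the first table Gpx1-201 had 44.2% and 40.5% of counts, against 45.6% and 58.1% for Gpx1-204. For Gpx4 the share of TPM with the annotated codon was 59.4% in replicate 2 and 58.0% in replicate 1, against 99.8% and 87.6% in the second table. For Txnrd2 it was 82.7% in replicate 2 and 73.1% in replicate 1, against 74.4% and 67.0%.

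Of 7 genes of the machinery that makes selenoproteins, 4 were called higher in replicate 2 and 3 were not called, where 28.8% of all genes tested were called higher. Their median log2 difference was 0.31 under TMM, 0.04 by ERCC and -0.03 by total counts. Sephs2, which makes the selenium donor and is a selenoprotein itself, had 94.7 TPM in replicate 2 against 36.3 TPM in replicate 1 (1.81). Scly, which recycles selenium from selenocysteine, was also higher (1.62), while Secisbp2, the protein that binds the selenocysteine element of the messenger RNA, was not called (-0.16). Among the selenoproteins of the pathway, Gpx1 was the one past 1.5-fold.

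Transcript shares of the other genes also depended on the table. For Gpx4 the first table gave 40.2% of TPM in replicate 2 and 41.4% in replicate 1 to Gpx4-203, a 280-base model with a retained intron. Its share of counts there was 13.7% and 15.5%. The second table lists Gpx4-203 at 0. In that table Gpx4-202 led in replicate 2, with 82.7% of TPM, against 43.0% in replicate 1, where Gpx4-207 had 43.9%. Thus the 2 libraries were further apart for Gpx4 in the second table, by 40.0 percentage points, than in the first, by 18.4. For Prdx5 the first table gave 41.4% in replicate 2 and 32.2% in replicate 1 to Prdx5-205, at 0 in the second table, where Prdx5-201 had 52.2% and 48.3%. Sod2-207, a processed transcript with no coding sequence, led Sod2 by TPM. It had 63.2% in replicate 2 and 67.2% in replicate 1 in the first table, and 41.6% and 42.7% in the second. The protein-coding transcripts of Sod2 held 8.97% of TPM in replicate 2 and 10.4% in replicate 1, against 25.9% and 19.4% in the second table. By counts, which are not per length, they held 38.8% in replicate 2 and 41.9% in replicate 1 in the first table. Their count shares in the second table were 44.1% and 45.5%.

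Counted as percentage points of a gene's TPM placed on other transcripts by the second table than by the first, the shift was 71.0 in replicate 2 and 65.5 in replicate 1 for Prdx5. It was 49.6 and 42.7 for Gpx4, 40.7 and 39.6 for Nnt, 26.7 and 62.4 for Txnrd2, and 25.1 and 28.4 for Sod2. It was smaller for Txn2, Idh2, Gpx1 and Gsr, between 5.88 and 16.8 points, and 0 for Prdx3, which has 1 annotated transcript. For Nnt and Prdx5 the shift between tables exceeded the shift between libraries several times in either table, and for Txnrd2 the libraries themselves were 49.98 points apart in the second table. There Txnrd2-203 had 65.8% in replicate 2 and 21.7% in replicate 1, and Txnrd2-214 was listed at 0 in replicate 2 with 37.1% in replicate 1.

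**Figure D5:**
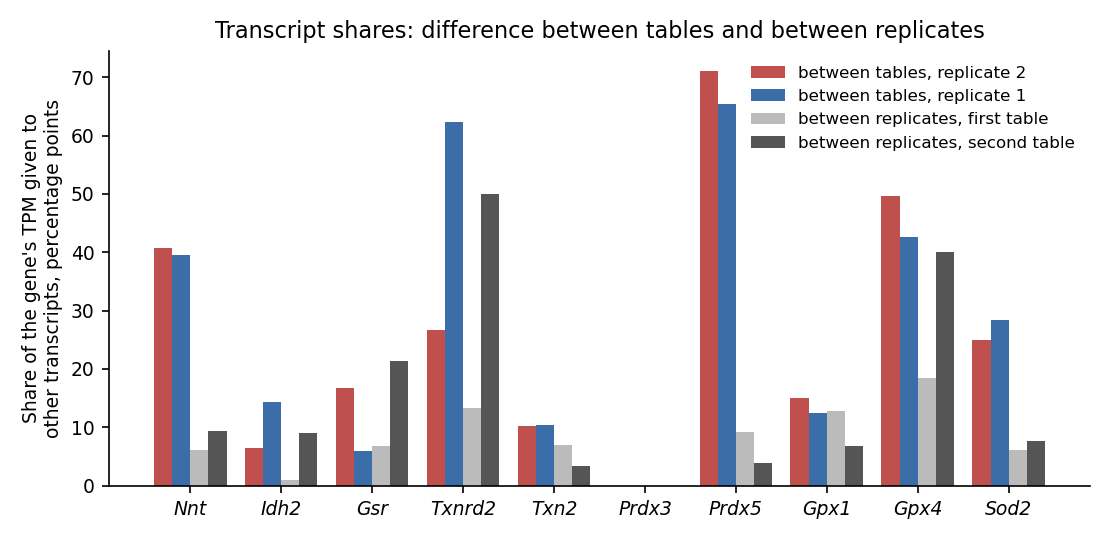
Percentage points of each gene's TPM that go to other transcripts, between the 2 tables in replicate 2 (red) and replicate 1 (blue) and between the replicates in the first table (light grey) and the second (dark grey). Prdx5, Gpx4 and Nnt differ by 39.6 to 71.0 points between tables in both libraries, while Prdx3, with 1 transcript, is at 0.

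Summed to genes, the tables were closer. The median protein-coding gene of at least 1 TPM had 0.50 log2 units more TPM in the second table in replicate 2 and 0.45 in replicate 1. Against that median, Sod2 was the one member more than 1.5-fold higher, in replicate 2 (0.65, where 4.45% of 12561 genes were), and at 0.58 in replicate 1 it lay just under that line, where 5.03% were past it. Its TPM was 372.4 in replicate 2 and 316.3 in replicate 1 in the second table, while its counts were 1.13 and 1.19 times those of the gene table. Long stretches of Sod2 have near copies elsewhere: 3110 bases at 98.3% identity in a transcript of Rps6ka2 and 3108 bases at 98.5% in AC166110.4, a long non-coding RNA. Reads over these stretches can be split between the genes, so Sod2 levels are uncertain to that extent. Rps6ka2 had 407 counts in replicate 2 against 557 in replicate 1, and AC166110.4 had 32 and 45.

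Gpx4 has a transcribed pseudogene, Gpx4-ps2, that matches it over 762 bases at 99.7% identity. Gpx4-ps2 took 887 counts in replicate 2 and 725 in replicate 1 in the gene table, but 0 and 38 in the second table. With these counts added, Gpx4 had 5806 counts in replicate 2 and 6729 in replicate 1, a log2 difference of 0.28 against 0.21 without them. Prdx5 shares 409 bases with Trmt112 on the opposite strand. Whether the counting used strand is not given in the sources used here, so that stretch is uncertain. Idh2 shares 1831 bases with Gm45203 on its own strand, which had 16 counts in replicate 2 and 18 in replicate 1. Gsr shares 144 bases with Gm24727, a snoRNA (small nucleolar RNA) gene on its own strand, with 157 counts in replicate 2 and 153 in replicate 1. Genes overlapping Txnrd2 are not reported here.

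Promoter windows of 300 bases (RefSeq, GRCm38.p6) were held for 8 of the 10 genes, with none for Nnt and Gsr. They were searched on both strands for 4 short motifs. Gpx4 had 4 windows and each other gene with a window had 1, so Gpx4 had more bases in which to match. The antioxidant response core TGACNNNGC was in none of the 8, while 14.0% of 27025 genes held it, and CAAGGTCA, a binding word of NR5A1 and estrogen-related receptors, was in none, against 1.76%. GCATGCGC, part of the binding word of nuclear respiratory factor 1, was in a Gpx4 window, against 3.05% of genes. CCAAT was found for Txn2, Gpx4, Sod2 and Idh2, against 41.1% of genes. These letter matches are a description of the windows and say nothing of binding.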

How the data were processed

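Per the text deposited with each sample, the authors' tables use assembly mm10 and GENCODE M21. An alignment to the transcriptome is named there as the origin of the gene table and first transcript table, and reads with an index as that of the second. Their tools, versions and use of strand were not given in the sources used here. Per the file headers, the first 2 tables hold expected counts and TPM, the deposited first transcript table also holds bounds of TPM, and the second holds estimated counts and TPM. Percent shares were computed from the deposited TPM and not taken from the deposited percent column, which is per gene identifier.

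The 10 genes and the other lists were chosen with earlier results of these data known, and no list is independent evidence. Members were matched by the symbol field, and identifiers with 1 symbol were summed. Expected counts were rounded. Libraries were scaled with edgeR 4.0.16 (TMM) in R 4.3.3, without mitochondrially encoded genes and spike-ins. A difference is the log2 fold of replicate 2 over replicate 1 (prior count 0.5). Genes whose mean count reached 20 entered an exact conditional binomial test, two-sided by doubling the smaller tail (SciPy 1.17.1, Benjamini-Hochberg at 0.05). Fold intervals are Clopper-Pearson at 95%. The limit that 0 counts allow is 3 counts, which is 8.86e-06% of the total in replicate 2 and 7.98e-06% in replicate 1. With 1 group no test between groups and no edgeR quasi-likelihood test was possible. Copies were searched with BLAST 2.17.0+ at 90% identity over at least 200 bases. Named were the 10 genes, all Nnt transcripts, other transcripts with at least 10% of a gene's TPM, and members of the lists and pairs. Also named were the 5 protein-coding genes nearest to Nnt, and overlapping genes other than those of Txnrd2. Of the copies, Gpx4-ps2, Rps6ka2 and AC166110.4 were named. Other copies of Gpx4 and Sod2 met the search limits and are not named. Alternatives were DESeq2 1.42.0 size factors, ERCC, total-count, respiratory-chain and cortex-marker scaling, the second table, other count minimums and prior count, log2(TPM + 1), rescaled TPM, shares and ratios of counts, and leaving out each replicate. Adding Gpx4-ps2 to Gpx4 was chosen after the values were seen.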

Additional observations from a re-analysis of the deposited data

How the results depend on the processing

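DESeq2 size factors, a prior count of 5, count minimums of 100 and 1, and the second table each left 7 genes called higher in replicate 2, 1 lower and 2 not called. The calls rest on the scaling: ERCC and total-count scaling each gave 4 higher and 5 lower. The respiratory chain set to 0 gave 2 and 7, and the cortex markers set to 0 gave 10 and 0. Of all genes tested, 15.65% were called higher and 52.81% lower by ERCC, and 14.02% and 58.31% by total counts. These shares were 9.49% and 75.34% with the respiratory chain set to 0, and 86.35% and 1.295% with the cortex markers set to 0. Signs turned for Nnt, Txnrd2 and Gpx4: -0.18, -0.046 and -0.072 by ERCC, -0.24, -0.11 and -0.14 by total counts, -0.51, -0.38 and -0.41 by the respiratory chain, and -0.32, -0.26 and -0.35 as log2(TPM + 1). Sod2 turned to -0.18 by the respiratory chain and Prdx3 to 0.45 by the cortex markers. Prdx5 was at 0.03 and not called by the respiratory chain. A scaling of counts shifts all genes by 1 amount, whereas log2(TPM + 1) moved the genes by different amounts, and the cause was not tested.

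The Nnt-201 share was 54.9% in the first table, 53.2% to 56.6% over the single replicates, and 14.7% in the second table; the cause was not tested. Shares moved beyond 1 SD for 8 of 10 genes in the second table and for 6 of 10 as counts. Levels moved for 8 of 10 genes in the second table and for 10 of 10 with TPM rescaled to nuclear genes. Of 10 ratios, 6 moved as counts, which are not per length, and 2 in the second table. Leaving out a replicate leaves no difference between libraries. No paired analysis was possible because there is 1 group. With 2 libraries, an SD has 1 degree of freedom.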
